A study of Mus musculus with 31 samples.

Results

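The mammalian circadian clock was followed through 10 genes in mouse colon: Arntl (Bmal1 in newer annotation), Per1, Per2, Per3, Cry1, Nr1d1, Nr1d2, Dbp, Tef and Ciart. Each gene was to be read from the probe set annotated to it alone, and where there were several, from the probe set with the highest mean over 31 arrays. That rule gave a value for 8 of the 10 genes, out of 18820 genes with such a probe set. Nr1d1 was listed only on probe sets shared with Thra, and Dbp only on a probe set shared with Sphk2, so neither gene has a level of its own here. All 8 measured genes were among the 12795 genes that passed the filter on dim signals, an intensity of at least 20 on at least 3 arrays. The genes were chosen by name with results of these data known, and their probe sets were selected on the mean level over all arrays, so those mean levels and the list as a whole are a description with no test.

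The samples were scrapings of the colonic lining from male C57Bl/6J mice aged 13 weeks. The mice ate a palm-oil-based high-fat diet (HFD, 45% of energy as fat) or low-fat diet (LFD, 10% of energy), from 2 weeks before the infusions on, and then received a rectal infusion on each of 6 days. The infusion was 80 µL of isotonic saline with 100 mM sodium acetate, propionate or butyrate, or saline alone, always under isoflurane and nitrous oxide sedation. The 8 groups were acetate, propionate, butyrate and saline on HFD (4 arrays each) and acetate (3 arrays), propionate, butyrate and saline (4 arrays each) on LFD. The protocol names 6 mice per treatment and does not say which of them the arrays come from, or that arrays were pooled, so p-values measure the spread between these samples.

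The hour of the day is fixed by the protocol. Lights were on from 23:00 to 11:00, infusions were given 2 h before the dark phase, and the colon was taken 4 h after the last infusion, which places every sample about 2 h after lights off. The labels give no separate sampling hour for each mouse. With a single labelled time point no rhythm, phase or amplitude can be measured. Each value below is a level at about the hour the protocol gives, and any spread in time between mice is not recorded.

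In the clock, the proteins of Arntl and Clock (or its relative Npas2) bind E-box elements and switch on the Per and Cry genes, whose proteins in turn repress them. The same activators drive Nr1d1 and Nr1d2, nuclear receptors that repress Arntl, as well as Dbp and Tef, which activate genes through D-box elements, and Ciart, a repressor of the Arntl-Clock pair. Transcripts of Arntl therefore run roughly opposite in phase to those of Nr1d1, Nr1d2, Dbp, Tef and Ciart, and the colon epithelium is known to carry such a clock. Meal times, glucocorticoids and light all shift it.

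Promoters are shown because the genes split into sets that moved together or oppositely between arrays, as described further on. RefSeq windows on GRCm38.p6, from 250 bases before to 50 bases after each annotated start, were found for 9 of the 10 genes (12 windows of 300 bases). On both strands, the E-box CACGTG, the related CACGTT, the D-boxes TTATGTAA and TTACGTAA, the core TAGGTCA of the element bound by Nr1d1 and Nr1d2, and the cAMP response element TGACGTCA were searched. No motif contains another. Each sequence below runs 5′ to 3′ along the gene, with matches in capitals:
Ciart, chr3:95882179-95882478, minus strand: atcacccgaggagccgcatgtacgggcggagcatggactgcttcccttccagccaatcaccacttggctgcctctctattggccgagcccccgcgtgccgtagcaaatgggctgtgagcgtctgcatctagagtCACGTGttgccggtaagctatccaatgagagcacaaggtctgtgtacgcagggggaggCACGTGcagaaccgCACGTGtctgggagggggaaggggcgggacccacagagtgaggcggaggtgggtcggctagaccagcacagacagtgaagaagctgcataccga
Cry1, chr10:85185005-85185304, minus strand: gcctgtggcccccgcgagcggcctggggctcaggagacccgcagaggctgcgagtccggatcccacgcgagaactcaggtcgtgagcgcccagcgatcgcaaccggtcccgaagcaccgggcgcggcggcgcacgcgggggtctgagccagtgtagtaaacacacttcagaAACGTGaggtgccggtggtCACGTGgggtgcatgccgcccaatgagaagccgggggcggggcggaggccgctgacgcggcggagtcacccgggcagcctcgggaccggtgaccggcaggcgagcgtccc
Per1, chr11:69098699-69098998, plus strand: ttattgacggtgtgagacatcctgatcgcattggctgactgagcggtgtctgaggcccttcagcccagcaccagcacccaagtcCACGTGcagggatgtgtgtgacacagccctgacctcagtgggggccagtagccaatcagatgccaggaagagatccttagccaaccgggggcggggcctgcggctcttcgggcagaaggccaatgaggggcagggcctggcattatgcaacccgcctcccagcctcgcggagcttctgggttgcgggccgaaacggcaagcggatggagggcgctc
Per3, chr4:151044616-151044915, minus strand: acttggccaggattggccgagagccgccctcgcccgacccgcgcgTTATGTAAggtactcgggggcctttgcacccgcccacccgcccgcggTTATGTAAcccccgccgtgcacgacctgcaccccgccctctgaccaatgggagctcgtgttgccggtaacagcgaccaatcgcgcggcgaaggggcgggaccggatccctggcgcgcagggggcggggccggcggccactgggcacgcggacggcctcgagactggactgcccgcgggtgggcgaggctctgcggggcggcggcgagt
Arntl, chr7:113207261-113207560, plus strand: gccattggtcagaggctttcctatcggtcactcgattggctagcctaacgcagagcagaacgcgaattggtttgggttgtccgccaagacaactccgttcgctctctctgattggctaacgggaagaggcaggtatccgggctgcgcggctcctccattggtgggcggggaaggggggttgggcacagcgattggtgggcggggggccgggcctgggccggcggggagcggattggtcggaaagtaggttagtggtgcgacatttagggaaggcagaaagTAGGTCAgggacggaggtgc
The Ciart window held 3 E-boxes, at 116, 58 and 44 bases before the start. Cry1 held CACGTG 60 bases and CACGTT 79 bases before its start, and the printed window of Per1 held CACGTG 166 bases before. Tef carried CACGTG in both of its windows, 127 and 138 bases before the start, and Nr1d1 carried CACGTT 28 bases before. Per3 alone held the D-box TTATGTAA, at 205 and 158 bases before its start, and a window of Arntl held TAGGTCA 30 bases after its start. The other Arntl window, the other Per1 window and the windows of Dbp and Nr1d2 held no match. The matches did not follow the sets: Tef and Cry1, which moved oppositely (r = -0.77), both held CACGTG. Of all 32851 windows in the table, 7.15% held CACGTG, 4.68% CACGTT, 0.938% TTATGTAA, 2.61% TAGGTCA, 0.119% TTACGTAA and 1.79% TGACGTCA, and no window of these genes held TTACGTAA or TGACGTCA. A match describes the letters and shows no binding.

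Values are RMA log2 levels, a summary of the probes of a probe set after background correction and normalization, so that 1 unit is a doubling. Levels of different genes cannot be set against each other, because probe sets differ in brightness. Array medians lay between 5.14 and 5.19, and arrays of a group correlated at r between 0.987 and 0.994. The scrapings were epithelial: 8 of 8 epithelial markers, Epcam and Krt8 among them, averaged between 10.9 and 12.9. Arrays that stood apart were saline HFD 2, saline LFD 2 and 3 and propionate LFD 2, whose mean over 12 small-intestinal enterocyte markers was 7.92, 8.23, 7.98 and 8.37, against 5.96 to 6.45 on the other 27 arrays. Saline HFD 1 and 2 had a mean over 8 smooth muscle markers of 7.04 and 6.74, against 4.77 to 6.12 on the other 29. Results are given without these arrays where that changed a call. In bulk tissue, fewer cells of a type and less RNA per cell cannot be told apart.

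**Figure D1:**
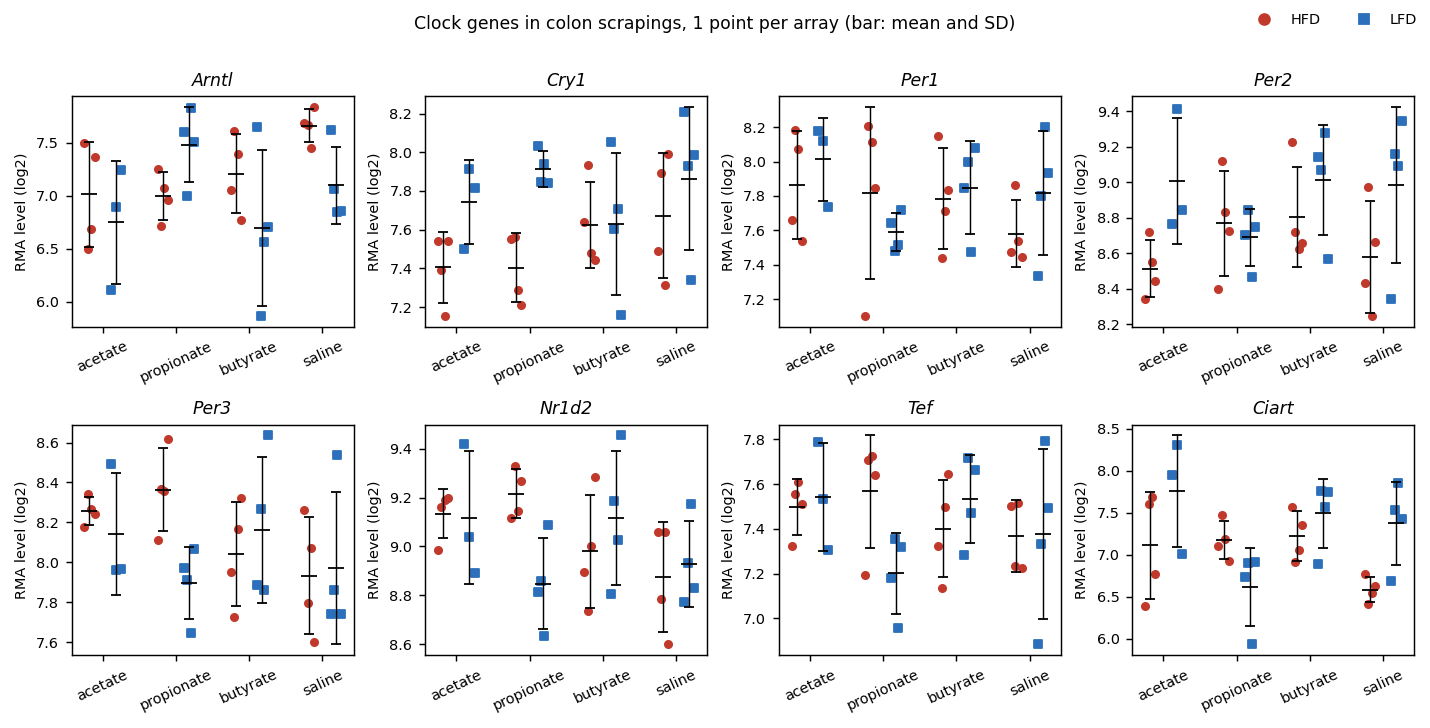
RMA log2 level (vertical axis) of the 8 measured clock genes by infusion (horizontal axis), with HFD arrays as red circles left of LFD arrays as blue squares; each point is an array, and black bars give the group mean and SD. Ciart spans 2.37 log2 units over the 31 arrays and Arntl 1.97, and for no gene does the step between neighbouring group means exceed the larger of their SDs.

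Arntl, the activator, had levels of 7.68, 7.66, 7.45 and 7.84 on the saline HFD arrays, against 7.62, 7.06, 6.85 and 6.85 on the saline LFD arrays. On propionate it read 7.25, 6.71, 7.07 and 6.96 on HFD, against 7.60, 6.99, 7.83 and 7.51 on LFD. Saline HFD was tight and high (7.66 ± 0.16, SD, n = 4), propionate HFD had an SD of 0.22, and the other 6 groups had SDs of 0.35 to 0.73. On butyrate the levels were 7.06, 7.61, 7.39 and 6.77 on HFD, against 7.64, 5.86, 6.57 and 6.70 on LFD, and on acetate 7.49, 6.50, 6.69 and 7.36 on HFD, against 6.11, 6.89 and 7.24 on LFD. Diet groups overlapped in each infusion. Over all 31 arrays Arntl varied 3.92-fold, and the lowest reading, 5.86 on butyrate LFD 2, sat in the same group as one of the highest, 7.64 on butyrate LFD 1.

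Among the repressors, Cry1, which binds and inhibits the Arntl-Clock complex, was the gene with the smallest adjusted p in any comparison. On propionate its levels were 7.55, 7.56, 7.29 and 7.21 on HFD, against 8.03, 7.84, 7.94 and 7.84 on LFD. Every HFD array lay below every LFD array there. On saline they were 7.49, 7.89, 7.31 and 7.99 on HFD, against 8.21, 7.93, 7.34 and 7.98 on LFD, and the 2 diets overlapped. Acetate gave 7.54, 7.39, 7.15 and 7.54 on HFD, against 7.50, 7.91 and 7.82 on LFD, with only the lowest LFD array inside the HFD range. Butyrate gave 7.64, 7.93, 7.48 and 7.44 on HFD, against 8.05, 7.60, 7.71 and 7.16 on LFD, again overlapping.

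Per1, Per2 and Per3 encode partners of the Cry proteins in repression, and Per1 and Per2 also respond acutely to hormones and light. Per2 read 8.34, 8.72, 8.55 and 8.44 on acetate HFD, against 8.77, 9.41 and 8.84 on acetate LFD, without overlap. On saline it read 8.43, 8.97, 8.25 and 8.66 on HFD, against 8.34, 9.16, 9.09 and 9.35 on LFD, where a single low LFD array made the groups overlap. The group means of Per1 lay between 7.58 ± 0.19 on saline HFD and 8.01 ± 0.24 on acetate LFD (SD, n = 4 and 3). Its widest group was propionate HFD, with 7.10, 8.21, 8.11 and 7.85.

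Per3 followed another course. On propionate its levels were 8.11, 8.37, 8.36 and 8.62 on HFD, against 7.97, 7.91, 7.64 and 8.06 on LFD. All HFD arrays were above all LFD arrays. On saline the order was mixed, with 8.26, 7.80, 8.07 and 7.60 on HFD, against 7.74, 7.86, 8.54 and 7.74 on LFD.

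Nr1d2, the measured repressor of Arntl, read 9.12, 9.33, 9.15 and 9.27 on propionate HFD, against 8.81, 8.86, 8.63 and 9.09 on propionate LFD. The groups did not overlap, by a gap smaller than the spread of either. Tef, the D-box activator, read 7.20, 7.71, 7.73 and 7.64 on propionate HFD, against 7.18, 7.36, 6.96 and 7.32 on propionate LFD. Here HFD array 1 fell among the LFD arrays while the other 3 lay above them all. In the other infusions the diet groups of Nr1d2 and Tef overlapped.

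Ciart was, with Arntl, the most variable of the genes, at 5.18-fold over the arrays. It read 6.77, 6.41, 6.54 and 6.63 on saline HFD, against 6.69, 7.53, 7.85 and 7.42 on saline LFD. On propionate the order was turned, with 7.10, 7.47, 7.19 and 6.93 on HFD, against 6.74, 6.90, 5.93 and 6.91 on LFD. Acetate gave 6.39, 7.61, 7.68 and 6.77 on HFD, against 7.94, 8.31 and 7.01 on LFD. Butyrate gave 7.57, 6.91, 7.06 and 7.36 on HFD, against 6.88, 7.76, 7.57 and 7.75 on LFD. Its second probe set, with a mean level of 6.19, correlated with the main one at r = 0.87 over the deviations of the 31 arrays from their group means. On that probe set propionate HFD (5.89 to 6.10) overlapped saline HFD (5.48 to 6.10) and propionate LFD (5.08 to 6.14). Butyrate HFD (5.66 to 6.85) overlapped saline HFD, and propionate LFD overlapped acetate LFD (6.06 to 7.03). Ciart values below are from the main probe set unless stated.

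Ranking the 8 groups by mean separated no neighbours. For each of the 8 genes, none of the 7 steps between adjacent group means was larger than the larger SD of the pair. The distance between the highest and the lowest group was 1.17 for Ciart (acetate LFD above saline HFD) and 0.97 for Arntl (saline HFD above butyrate LFD). It was between 0.37 and 0.51 for the other 6 genes, and for Per3, Nr1d2, Tef and Cry1 both ends of the order were propionate groups.

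The question of diet was put to a limma fit over all genes, with HFD minus LFD averaged over the 4 infusions. None of the 8 genes passed an adjusted p of 0.05, in a comparison where 2.7% of the genes tested did (196 higher, 149 lower on HFD). Unadjusted p was under 0.05 for Cry1 and Per2, and over all genes for 21.7%. Cry1 had a difference of -0.26 ± 0.09 (SE, adjusted p = 0.0875, limma), with 13 of 16 HFD arrays below the LFD mean. Per2 had -0.26 ± 0.10 (adjusted p = 0.129, limma), also with 13 of 16 arrays below. Cry1 passed without the 4 arrays high in small-intestinal markers, at -0.34 (adjusted p = 0.0332, limma). It also passed without saline LFD array 3 (adjusted p = 0.0235, limma) or butyrate LFD array 4 (adjusted p = 0.0361, limma).

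For the remaining genes the intervals bound the diet difference. Ciart had -0.29 (95% interval -0.59 to 0.01) and Arntl 0.21 (-0.08 to 0.51). Per3 had 0.11 (-0.08 to 0.29), Per1 -0.06 (-0.27 to 0.15), Nr1d2 0.05 (-0.09 to 0.19) and Tef 0.05 (-0.12 to 0.21). The median over the 8 genes was -0.01, against 0.01 over all genes tested, with 4 values above 0 and 4 below.

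**Figure D2:**
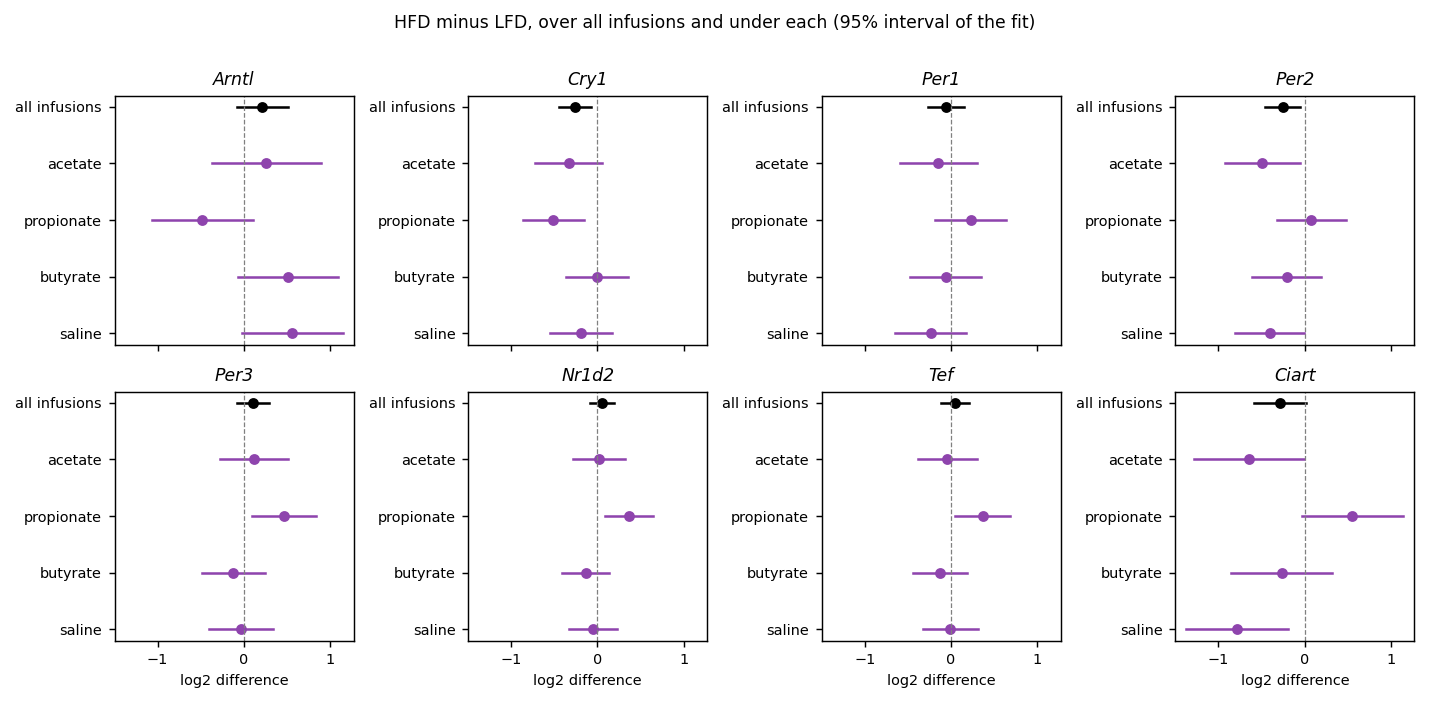
HFD minus LFD in log2 units (horizontal axis) for each clock gene, over all infusions (black) and under each infusion (purple); points are fitted differences and lines their 95% intervals. The propionate difference of Ciart (0.55) and Arntl (-0.48) lies on the other side of 0 from those under saline (-0.79 and 0.56), and no gene passed the adjusted threshold. On the second probe set of Ciart, not drawn, the diet means were closer. They were 6.00 on HFD and 5.72 on LFD under propionate, and 5.87 on HFD and 6.39 on LFD under saline.

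Infusion by infusion, the propionate groups held most of the separation. HFD minus LFD under propionate was 0.47 for Per3, 0.37 for Nr1d2, 0.37 for Tef, 0.55 for Ciart, -0.51 for Cry1 and -0.48 for Arntl. None of the 8 passed (adjusted p from 0.0696 for Cry1 to 0.848, limma), in a comparison where 6.87% of all genes did (262 higher, 617 lower). The diet groups did not overlap for 4 of the 8 (Per3, Cry1, Nr1d2 and Ciart), against 14% of all genes. On its second probe set Ciart did overlap there, with means of 6.00 on HFD and 5.72 on LFD. Without propionate HFD array 1, Cry1 and Tef passed, and without saline LFD array 3, Cry1 did.

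Under saline, acetate and butyrate no gene of the array passed by limma (0%), while 7.28%, 7.71% and 3.67% had an unadjusted p under 0.05. Under saline, HFD minus LFD was -0.79 for Ciart (unadjusted p = 0.0106, adjusted p = 0.667, limma), -0.41 for Per2 and 0.56 for Arntl. Under acetate it was -0.64 for Ciart and -0.49 for Per2, and Per2 was the only member without overlap, against 8.4% of all genes. On the second probe set of Ciart the diet means were closer. They were 5.87 on HFD and 6.39 on LFD under saline, and 6.24 on HFD and 6.65 on LFD under acetate. Under butyrate no clock gene had an unadjusted p under 0.05, with Arntl at 0.51 and Ciart at -0.27.

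Each acid was set against saline on each diet, 6 comparisons in which no gene of the array passed by limma and 1.51% to 11.7% had an unadjusted p under 0.05. Propionate on HFD gave the most separated values. Arntl averaged 6.999 ± 0.22 on propionate and 7.66 ± 0.16 on saline (SD, n = 4 each), a difference of -0.66 (95% interval -1.24 to -0.08, adjusted p = 0.382, limma). Nr1d2 averaged 9.22 ± 0.10 on propionate and 8.88 ± 0.22 on saline, a difference of 0.34 (0.06 to 0.62, adjusted p = 0.338, limma). Per3 had 0.43 (0.06 to 0.80) and Ciart 0.58 (-0.003 to 1.17). Arntl, Nr1d2 and Ciart did not overlap between propionate and saline on HFD, 3 of 8 genes against 4.71% of all genes. On its second probe set Ciart did overlap, with means of 6.00 on propionate and 5.87 on saline. Saline HFD arrays 1 and 2, high in smooth muscle markers, belong to this comparison, and their part in it was not tested beyond leaving them out, which called none of the 8.

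Acetate on HFD had an Arntl difference of -0.65 (95% interval -1.23 to -0.07), with overlap between acetate and saline. Butyrate on HFD had -0.45 for Arntl and 0.64 (0.05 to 1.23) for Ciart. Ciart was the only clock gene without overlap between butyrate and saline, against 2.92% of all genes, and its second probe set overlapped. On LFD, propionate had a Ciart difference of -0.75 (-1.34 to -0.17, adjusted p = 0.972, limma), while acetate and butyrate had no clock gene with an unadjusted p under 0.05. With the 3 acids averaged against saline over both diets, Arntl had -0.35 (-0.69 to -0.02) and Nr1d2 0.17 (0.01 to 0.33), neither past the adjusted threshold. These comparisons share the saline arrays of their diet, so their signs are not independent.

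**Figure D3:**
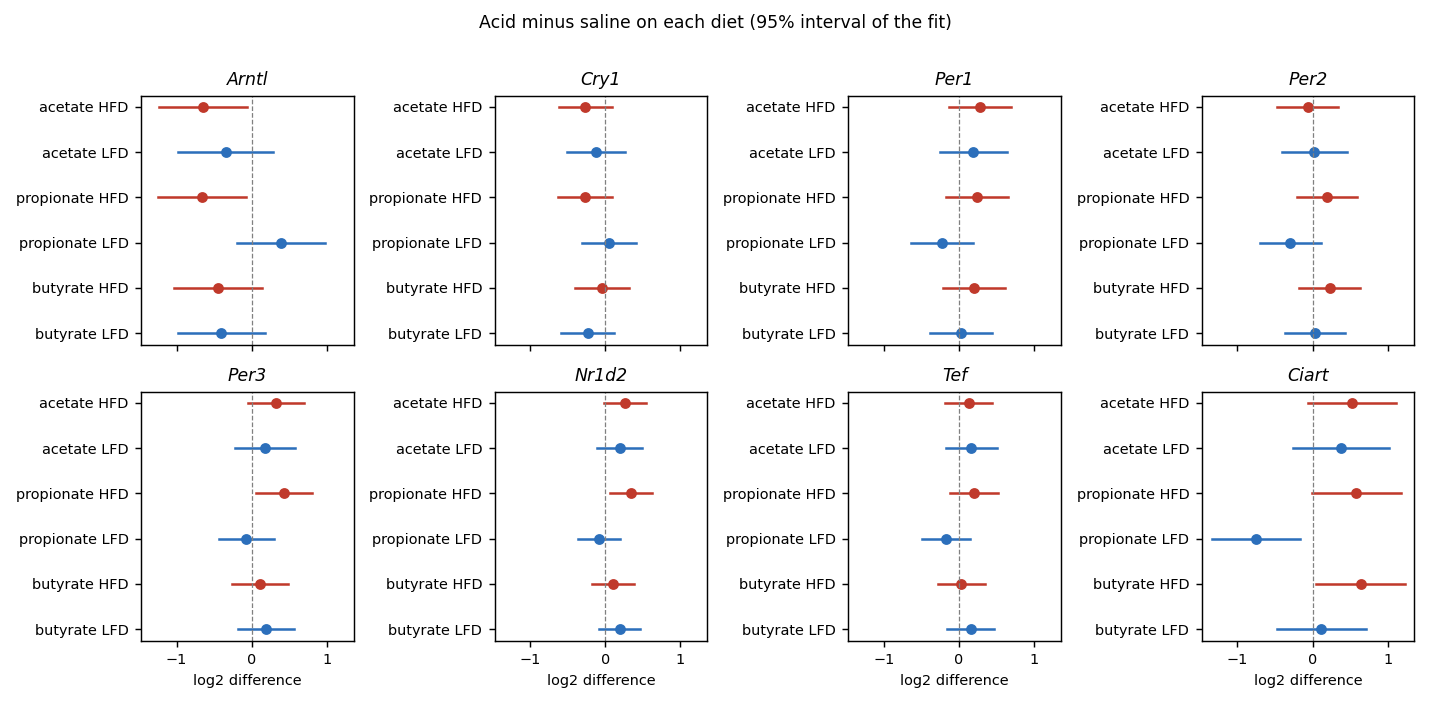
Acid minus saline in log2 units (horizontal axis) for each clock gene on HFD (red) and LFD (blue); points are fitted differences and lines their 95% intervals. On HFD all 3 acids have Arntl below saline (-0.65, -0.66 and -0.45) and Ciart above it (0.52, 0.58 and 0.64), against the same saline arrays, and on LFD propionate lies on the other side of 0 for both genes. On the second probe set of Ciart, not drawn, the HFD means were closer: 6.24, 6.00 and 6.26 on the acids, against 5.87 on saline.

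The 3 acids, sodium salts of straight-chain carboxylic acids that differ in chain length, were infused at the same concentration and compared with each other in 6 pairs. Over all genes 0.0625% passed for butyrate against propionate on HFD (2 higher, 6 lower), none of them a clock gene, and none passed in the other 5 pairs. On LFD the Ciart level was 6.62 ± 0.46 on propionate, against 7.75 ± 0.67 on acetate (SD, n = 4 and 3), a difference of -1.13 (95% interval -1.77 to -0.50), lower in 4 of 4 propionate arrays than the acetate mean. Its unadjusted limma p was 0.001 and its adjusted p over all genes 0.9996. Butyrate minus propionate on LFD was 0.87 for Ciart (0.28 to 1.46, adjusted p = 0.9994, limma). Arntl had 0.73 (0.10 to 1.36) for propionate minus acetate and -0.79 (-1.37 to -0.20) for butyrate minus propionate on LFD, neither past the adjusted threshold. Ciart and Per1 did not overlap between propionate and acetate on LFD, against 4.77% of all genes, and the second probe set of Ciart overlapped.

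Acetate and butyrate were not separated from each other. On LFD butyrate minus acetate lay between -0.26 (Ciart, 95% interval -0.90 to 0.37) and 0.02 (Per3, -0.38 to 0.42). On HFD the same pair lay between -0.22 (Per3, -0.59 to 0.15) and 0.29 (Per2, -0.11 to 0.69). Propionate minus acetate on HFD stayed between -0.05 (Per1, -0.46 to 0.37) and 0.25 (Per2, -0.15 to 0.66). Butyrate minus propionate on HFD lay between -0.32 (Per3, -0.69 to 0.05) and 0.22 (Cry1, -0.14 to 0.58). These intervals still allow differences of the size seen elsewhere, so they do not show that the acids act alike.

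Whether an acid's difference from saline depended on diet was tested as the HFD response minus the LFD response. For propionate this was 1.34 for Ciart (95% interval 0.51 to 2.17, unadjusted p = 0.0027, adjusted p = 0.200, limma) and -1.05 for Arntl (-1.87 to -0.22, adjusted p = 0.273, limma). The second probe set of Ciart gave 0.80. Nr1d2 had 0.42 (0.03 to 0.81, adjusted p = 0.347, limma). These 3 of 8 genes had an unadjusted p under 0.05, as did 12.8% of all genes, and no gene of the array passed. For acetate and butyrate no clock gene had an unadjusted p under 0.05. Over all 21 comparisons, 27 of 168 values for the clock genes (16.1%) had an unadjusted limma p under 0.05, against 7.32% of the values of all genes tested, and none passed after adjustment. The comparisons reuse the same arrays and the genes vary together between arrays, so these values are not independent. The genes were also chosen with results of these data known, so the shares are a description with no test.

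Other core clock genes gave 1 call by diet. Of 13 tested among 16 further core clock genes, none passed over all infusions by limma, although Cry2, a second Cry repressor, had 0.16 (adjusted p = 0.0789), Bhlhe40, a repressor of E-box genes, -0.19 (adjusted p = 0.0876), Rora, an activator of Arntl, 0.16 and the kinase gene Csnk1e 0.12. Their median difference was 0.03, against 0.01 over all genes. Under propionate 1 of the 13 passed, near the 6.87% of all genes called there. This was Cry2, higher on HFD: 8.34 ± 0.23 on HFD and 7.90 ± 0.11 on LFD (SD, n = 4 each), a difference of 0.44 ± 0.11 (SE, adjusted p = 0.0195, limma). Leaving out propionate LFD array 3 or 4, or propionate HFD array 2 or 3, ended that call (adjusted p up to 0.0824, limma).

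Of 9 tested among 10 output genes of the clock, 2 were lower on HFD over all infusions, where 2.7% of all genes were called in either direction. Usp2, a deubiquitinase gene with strong rhythms in many tissues, ranged from 7.63 to 8.71 (median 8.11) on 16 HFD arrays, against 8.17 to 9.05 (median 8.56) on 15 LFD arrays. Its difference was -0.46 ± 0.09 (SE, adjusted p = 0.0191, limma), and it was called under each alternative tried. Alas1, the rate-limiting enzyme of haem synthesis, ranged from 9.28 to 10.11 (median 9.60) on HFD, against 9.68 to 10.39 (median 10.09) on LFD. Its difference was -0.38 ± 0.09 (adjusted p = 0.0203, limma), and its adjusted p was 0.0504 (limma) once saline HFD 1 and 2 were left out. For both genes the diets overlapped.

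The remaining output genes gave no call over all infusions, with a difference of -0.17 for Nampt, the NAD salvage enzyme (adjusted p = 0.0683), and 0.52 for Pdk4, a brake on pyruvate oxidation (adjusted p = 0.126). Under propionate Nampt was lower on HFD, with 8.84 ± 0.21 on HFD and 9.22 ± 0.05 on LFD (SD, n = 4 each), a difference of -0.38 (adjusted p = 0.0299, limma). That call was lost without propionate LFD array 3 or 4 or propionate HFD array 2 or 3 (adjusted p up to 0.123). Of 9 glucocorticoid-responsive and 11 immediate early genes tested none passed in any of the 21 comparisons by limma. Nearest over all infusions were Zbtb16, with 0.49 (adjusted p = 0.065), and Btg2, with 0.22 (adjusted p = 0.0718).

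Within groups, where diet and infusion are the same, the clock genes varied more than most. The SD of arrays around their group means was 0.44 for Ciart and 0.44 for Arntl, larger than for 98.3% of the 12795 genes tested. It was 0.31 for Per1, 0.30 for Per2, 0.27 for Per3 and 0.26 for Cry1, larger than for 91.6% to 94.7% of genes. Tef had 0.23 and Nr1d2 0.20, larger than for 86.9% and 79.9%, and the median gene had 0.15.

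That variation was shared. The deviation of each array from its group mean was correlated between genes for all 28 pairs of the 8, with 100000 shuffles within groups and adjustment over the pairs. By Pearson's r 23 pairs passed, 13 positive and 10 negative, and by Spearman's rho 22. Per3 and Nr1d2 correlated at r = 0.90 and rho = 0.91, and still at 0.89 without the 2 arrays farthest from the median of Per3. Per3 and Cry1 had r = -0.86 and rho = -0.84 (r = -0.79 without the 2 farthest), and Cry1 and Nr1d2 r = -0.81 and rho = -0.78 (r = -0.76). The adjusted permutation p was 5.6e-05 by r for each of these 3 pairs, from 1e-05 before adjustment, the smallest the shuffles can give.

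**Figure D4:**
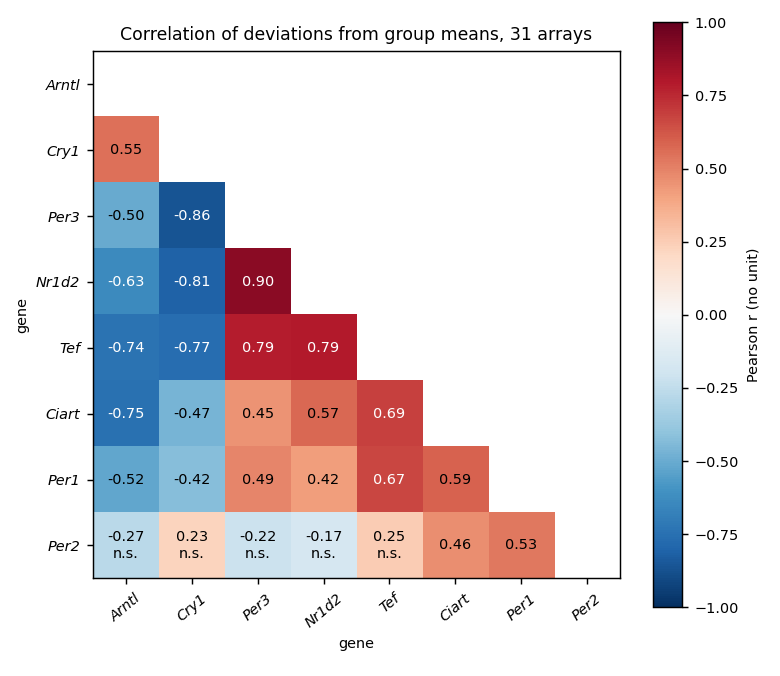
Pearson's r (colour and printed value, no unit) between the deviations of 2 clock genes from their group means over 31 arrays, for each of 28 pairs; n.s. marks an adjusted permutation p of 0.05 or more. Arntl and Cry1 are negatively related to Per3, Nr1d2, Tef and Ciart, which are positively related to each other, and 5 of the 7 pairs of Per2 did not pass.

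Tef ran with the same set. Its r was 0.79 with Per3 and 0.79 with Nr1d2, and -0.77 with Cry1. Arntl was opposed to Ciart (r = -0.75, rho = -0.73) and to Tef (r = -0.74, rho = -0.76), and less closely to Nr1d2 (r = -0.63), Per1 (r = -0.52) and Per3 (r = -0.50). Arntl and Cry1 were positively related (r = 0.55). Within a single diet that pair did not pass in either. Ciart was less closely related to Cry1 (r = -0.47) and to Per3 (r = 0.45) than to Arntl. Both of these pairs failed within each diet and without the 2 arrays farthest from the median. By the signs over all 31 arrays, those high for their group in Arntl and Cry1 tended to be low in Per3, Nr1d2, Tef and Ciart.

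Saline LFD and butyrate LFD are given as examples of this split, which not every group followed. Among saline LFD arrays, array 1 had the highest Arntl (7.62) and Cry1 (8.21) and the lowest Tef (6.88) and Ciart (6.69). Array 3 had the lowest Cry1 (7.34) and the highest Per3 (8.54), Nr1d2 (9.17), Tef (7.79) and Ciart (7.85). That array 3 is also one of those high in small-intestinal markers. Among butyrate LFD arrays, array 1 had the highest Arntl (7.64) and Cry1 (8.05) beside the lowest Nr1d2 (8.80), Tef (7.28) and Ciart (6.88). In propionate HFD, however, array 2 had the highest Cry1 (7.56) beside the highest Nr1d2 (9.33) and Ciart (7.47) and the lowest Arntl (6.71).

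**Figure D5:**
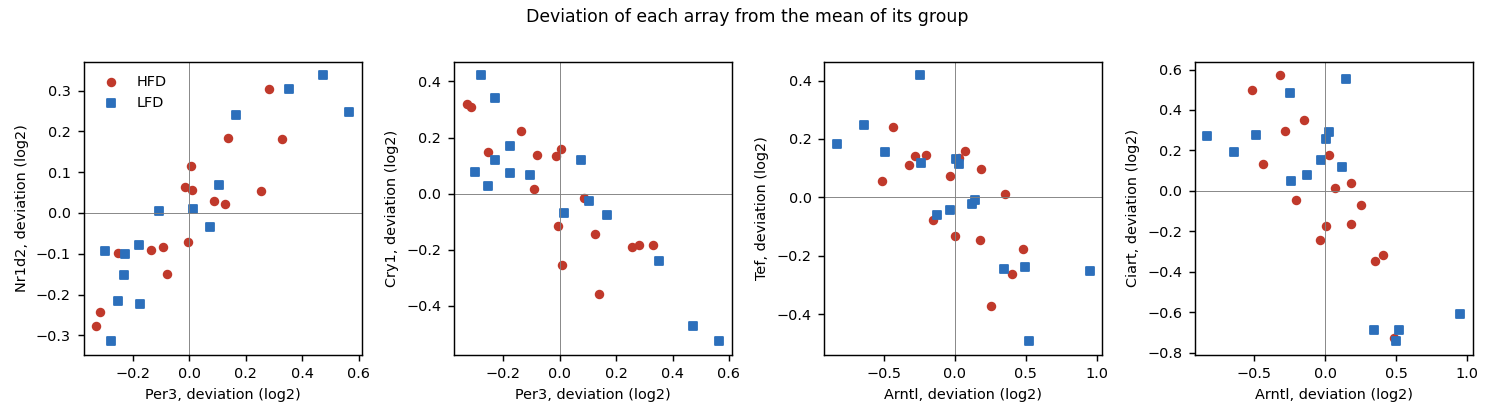
Deviation of each array from its group mean, in log2 units on both axes, for 4 pairs of clock genes, with HFD arrays as red circles and LFD arrays as blue squares. Per3 with Nr1d2 rises (r = 0.90), the other pairs fall (r = -0.86, -0.74 and -0.75); slopes were not compared between diets.

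The sign of r was the same within HFD (16 arrays) and within LFD (15 arrays) for all 28 pairs. Within HFD 12 pairs passed and within LFD 14. Per3 with Nr1d2 had r = 0.88 within HFD and 0.91 within LFD, Per3 with Cry1 -0.82 and -0.89, and Arntl with Ciart -0.82 and -0.71. Without the 2 arrays farthest from the median, 16 of the 23 pairs still passed. Without the 4 arrays high in small-intestinal markers 19 pairs passed. Among those lost were Per1 with Per2 (r = 0.50, adjusted permutation p = 0.0619) and Per1 with Cry1 (r = -0.41, adjusted permutation p = 0.0544). Ciart with Cry1 (r = -0.37, adjusted permutation p = 0.084) and Ciart with Per3 (r = 0.37, adjusted permutation p = 0.0937) were lost as well.

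Per2 stood partly outside this pattern. Its pairs with Per1 (r = 0.53) and Ciart (r = 0.46) passed, while those with Arntl (-0.27), Per3 (-0.22), Cry1 (0.23), Nr1d2 (-0.17) and Tef (0.25) did not. Its pair with Per1 did not pass without saline LFD array 1 and propionate HFD array 1 (r = 0.28 with group means taken again, adjusted permutation p = 0.236). Per2 was more strongly related to the second component of all genes, which holds 14.5% of the within-group variance (r = -0.85, rho = -0.85, adjusted permutation p = 0.00128 over 128 relations). Per1 had r = -0.71 with that component (adjusted permutation p = 0.0192; r = -0.58 without 2 arrays). The sign of a component is arbitrary, and here it was set so that Arntl was positively related to it (r = 0.35).

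As a measure of how common such values were, the share of all tested genes with an absolute r at least as large was counted, the partner itself included. With Per3, 0.00782% of genes reached the r of Nr1d2 and 0.125% that of Cry1. With Arntl, 0.203% reached the r of Ciart and 0.234% that of Tef. Weaker pairs that passed were common by this measure. With Per1, 28.5% of genes reached the r of Nr1d2, 28.2% that of Cry1 and 19.4% that of Per3, and with Per3, 19.9% reached that of Ciart. With Per2, 16% of genes reached the r of Per1 and 66.4% that of Nr1d2, a pair that did not pass.

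The probe sets shared by 2 genes are described without assigning them. A probe set listed for Nr1d1 and Thra and the probe set listed for Dbp and Sphk2 correlated with each other at r = 0.94 (rho = 0.89, adjusted permutation p = 3.33e-05 over 10 relations). With Tef they had r = 0.88 and 0.89, and with Arntl -0.59 and -0.67. A second probe set of Nr1d1 and Thra had r = 0.24 with the first and 0.38 with Tef, neither past the threshold. Which of the paired genes gave these signals cannot be told apart.

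Outside the 8 genes, the 5 most like Arntl in their deviations over the 31 arrays were Slc31a1 (r = 0.87), Denn2b (0.83), Cldn8 (0.82), Npas2 (0.82) and Manba (0.79), given as a description. Npas2 is the partner that can take the place of Clock, whose own r with Arntl was 0.56. Among the listed output genes Lonrf3 had r = 0.79 with Arntl, the sixth place of all genes. For Tef, taken after the values were seen because Dbp has no level here, the nearest were Vamp2 (0.85), Gas6 (0.82) and Tns4 (0.82). Outside the 8 genes, the nearest to Per3 was Efna3 (r = 0.90), which is not on the clock lists. Cipc, the gene of a protein that binds Clock and inhibits it, was picked out after its values were seen, with r = 0.89 to Per3 and 0.88 to Nr1d2. It was also higher on HFD under propionate, by 0.41 (adjusted p = 0.0364, limma), a call that was lost without any single propionate array except HFD array 1 (adjusted p up to 0.115), and once the 4 arrays with raised enterocyte markers were left out (adjusted p = 0.0531). Nfil3, a repressor acting on D-box elements, was the gene most opposed to Ciart (r = -0.77).

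The genes nearest to Per2 were Bcl3, a cofactor of NF-kappaB (r = 0.91), C2cd2l (0.88) and Map3k11 (0.87), none of them on the clock lists. That does not set Per2 apart. The genes nearest to Per1 (Cmip, r = 0.87), Tef (Vamp2, 0.85) and Ciart (Ctnnbip1, 0.73) were not on those lists either. Arntl differed, with Npas2 (0.82) among its nearest. The genes most opposed to Per3 were the chaperone genes Hsp90b1 (r = -0.89) and Hsp90aa1 (-0.88) and the co-chaperone gene Ahsa1 (-0.89).

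No list of cell type markers was related to a clock gene at the adjusted threshold. The largest r was that of the fibroblast list with Nr1d2 (r = -0.54, rho = -0.50, r = -0.44 without 2 arrays, adjusted permutation p = 0.133 over 128 relations). The fibroblast list also had r = -0.47 with Per3, -0.46 with Tef, -0.30 with Ciart, 0.40 with Cry1 and 0.32 with Arntl. None of these passed, and the part of tissue make-up in the shared variation was not tested further. The red blood cell list, with Alas2 as its only tested gene, had r = -0.51 with Arntl and the smallest p of the marker lists (adjusted permutation p = 0.0826). Over all infusions the small-intestinal list had a median diet difference of -0.34, with 1 of 12 genes, the glucose carrier Slc5a1, lower on HFD. Their part in the diet values of the clock genes was not tested beyond leaving out the 4 arrays.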

How the data were processed

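Total RNA from 31 colon scrapings was hybridised to whole-transcript arrays. The deposited table holds log2 values of 35556 probe sets made by the authors with RMA, per the submitters' processing notes, whose version is not given in the sources used here; its values ran from 1.13 to 13.8. The table holds no counts, and the number of arrays limits the precision. GEO's platform annotation lists 23099 of the probe sets, 21218 with 1 symbol and 1881 with several; symbols were updated through Entrez IDs. Per gene the probe set with 1 symbol and the highest mean was kept, and genes with an intensity of 20 on at least 3 arrays were tested. limma 3.58.1 in R 4.3.3 fitted 1 mean per group over all 8 groups, with an intensity trend and Benjamini-Hochberg adjustment over 12795 genes in each of 21 comparisons. The fit was tested on simulated data first. Correlations used deviations from group means and 100000 shuffles within groups (NumPy 2.4.6).

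The genes and lists were chosen with earlier results of these data known. All 10 genes were to be named in each comparison. Of other clock, output, glucocorticoid and immediate early genes, those called and up to 4 with the smallest p by diet were named, and for Arntl and Dbp the 5 genes most alike. Dbp and Nr1d1 lack a probe set of their own, so 28 pairs were tested in place of 45, and Tef was used for Dbp. No 2 arrays held the same values.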

Additional observations from a re-analysis of the deposited data

Results flagged for a closer look

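In 56 sets of 4 arrays, 7 groups for each of 8 genes, 4 held an array far from the other 3 by Dixon's test at 95%, where chance alone gives about 1 in 20. Per2 was 9.23 on butyrate HFD 1, against 8.62 to 8.72 on the other butyrate HFD arrays. Per3 was 8.54 on saline LFD 3, against 7.74 to 7.86 on the others of its group, and this is also an array high in small-intestinal markers. Nr1d2 was 8.98 on acetate HFD 1, against 9.16 to 9.20 on the others. Tef was 7.20 on propionate HFD 1, against 7.64 to 7.73 on the others, and that array also had the lowest Per1 of all (7.10). The acetate LFD group has 3 arrays and was not tested.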

How the results depend on the processing

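No clock gene passed in 19 of the 21 comparisons under any alternative tried. For diet over all infusions, 2 passed with array weights (Per2 -0.29, adjusted p = 0.0271; Cry1 -0.26, adjusted p = 0.0371, limma) and 1, Cry1, without the 4 arrays high in small-intestinal markers. Leaving out single arrays gave 0 to 1. For diet under propionate, 4 passed with array weights (Per3, Cry1, Nr1d2 and Tef) and 2 with only the groups compared (Cry1 and Per3). Leaving out single arrays gave 0 to 2. The difference of Per1 by diet ranged from -0.10 to 0.0038 when single arrays were left out, and turned sign without propionate HFD array 1. Pairs past the threshold numbered 12 within HFD and 14 within LFD, against 23, with fewer arrays in each. Over 105 pairs of same-numbered arrays of different groups, r of the deviations ran from -0.50 to 0.47 (median 0.04), with 42 pairs over 0.1. Differently numbered arrays were not set beside them, so these values cannot show whether replicate numbers pair the samples. With the replicate number as a block, 0 clock genes passed in every comparison.

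Counts over all genes moved more. Diet over all infusions called 345 genes, against 1788 with array weights, 559 without the 4 arrays, 115 without the 2 arrays high in smooth muscle markers and 127 (without acetate LFD 3) to 1027 (without saline LFD 3) when single arrays were left out. Diet under propionate called 879, against 2652 with array weights, 1326 among all probe sets and 11 (without propionate HFD 2) to 1731 (without propionate HFD 1). Butyrate against propionate on HFD called 8, against 937 with array weights, 183 among all probe sets, 64 with the replicate block, 53 with a stricter filter, 21 after quantile normalization, 2 without the trend, with robust moderation or without the 4 arrays, and 0 to 585 without single arrays. The cause was not tested. The second Nr1d2 probe set failed the filter and gave no value. The 3 or 4 arrays of each group limit what single-infusion comparisons can detect.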
